A study of Mus musculus with 16 samples.

Results

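The question of this comparison is what LIN28B adds to a colon tumour that already carries the Apcmin allele. It takes 5 of the 16 samples of the series: 3 LIN28B/Apcmin colon tumours and 2 Apcmin colon tumours. They were chosen by their labels and by the share of probes detected. LIN28B/Apcmin colon replicate 4 was left out because only 12.0% of its probes were detected, and bead signals under 25, which marked lost values, were treated as missing. LIN28B/Apcmin mice had the genotype iLIN28B; Apcmin/+, an inducible LIN28B transgene beside the Apcmin allele, and Apcmin mice had Apcmin/+ without the transgene. Both groups were of a mixed strain background, aged 3 months and given doxycycline from 6 to 7 weeks of age, and their tumours were adenomas by the labelled histology. They therefore share the Apcmin allele and the doxycycline. Beside them stand 2 arrays of wt colon mucosa from mice of the same age and treatment, and, for the small intestine, 2 LIN28B/Apcmin and 2 Apcmin tumours, also adenomas at 3 months. The title of LIN28B/Apcmin small intestinal replicate 2 reads Tum Muc where the others read Tum, and whether it holds mucosa beside tumour was not given in the sources used here. The fit also held 1 array of wt small intestinal mucosa at 3 months, which, alone in its group, adds no degree of freedom to the shared estimate of the spread. Into that estimate also went 2 small intestinal tumours, labelled adenoma/adenocarcinoma. They came from mice aged 8 months that carried iLIN28B and no Apcmin allele. All of these mice had the same doxycycline. The promoter or cell type that drives the transgene was not given in the sources used here. All 3 LIN28B/Apcmin colon arrays share 1 title number, while the Apcmin colon arrays have 2, and should each number mean 1 mouse, the effect of the genotype and of that mouse cannot be told apart. The p-values measure only the spread between these samples.

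LIN28B is an RNA-binding protein of early development that binds precursors of the let-7 microRNAs and keeps them from maturing. Mature let-7 represses messages that carry sites for its seed, among them many growth and fetal genes, so let-7 targets are the direct output of the pathway. The Apcmin allele truncates Apc, the scaffold that holds back Wnt signalling, and mice that carry it form adenomas in the intestine, where loss of the remaining allele locks the epithelium in a crypt-like, proliferating state.

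Each value below is a log2 intensity after background correction and quantile normalisation, each difference is the mean of LIN28B/Apcmin minus that of Apcmin colon tumours on that log2 scale ± its limma standard error, and each adjusted p is that of limma after Benjamini-Hochberg adjustment over all genes tested. Between 48.3% and 55.7% of probes were detected on the 5 arrays. LIN28B/Apcmin replicate 3 had lost 1985 probe signals, which left 962 of the 11229 genes tested, and 12 of those called, without a value on that array. Statements on every array cover the arrays with a value, and each list mean is taken over the members that have a value on all 7 colon arrays. Epithelial markers were present on every array: their mean log2 intensity was 11.04, 10.86 and 10.78 on the LIN28B/Apcmin arrays and 10.74 and 10.86 on the Apcmin arrays, with Cdh1, Krt8, Vil1 and Lgals4 detected on all 5. The median within-group SD of a gene was 0.253 log2 among LIN28B/Apcmin and 0.125 among Apcmin tumours, and Spearman correlations across genes between the 5 arrays ran from 0.941 to 0.984.

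With LIN28B, 132 of 11229 genes changed (adjusted p under 0.05; 1.18% of those tested): 56 were higher (0.499%) and 76 lower (0.677%). Of the genes that rose, 11 were on the type I interferon list, and of those that fell, 6 were on the goblet cell list and 5 on the colonocyte list. All gene lists were chosen with earlier results of these data known. Their counts, here and below, therefore describe these arrays and are not independent support. The largest rise was that of Apoc4 and the largest fall that of Sycn. Without a threshold, 1911 genes (17.0%) lay higher on all LIN28B/Apcmin than on all Apcmin arrays and 1910 (17.0%) lower, so that groups that do not overlap are common here. The count rested on single arrays: it was 5 without Apcmin replicate 2, 20 without Apcmin replicate 1, 54 without LIN28B/Apcmin replicate 2, and 51 or 50 without one or the other wt colon array, which enter through the shared estimate of the spread; without either 8-month array it was 120. Averaging arrays of 1 title number leaves a single LIN28B/Apcmin value, which was assumed to vary like the other groups. Most of the 132 calls were then lost. The averaging leaves the means of both colon tumour groups as they were, so that the direction of each gene could not change. Using all 16 arrays, the unreadable ones included, left 0 calls (176 at an unadjusted limma p under 0.05). Median scaling in place of quantile normalisation gave 33 higher and 132 lower genes, with the median difference of all genes at -0.12. Casp14, Cyp2f2, Mptx1, Sycn and Tgm3, all lower with LIN28B, were the 5 genes called whichever of the 5 colon tumour arrays was left out. In bulk tissue, fewer cells of a type and less RNA per cell cannot be told apart.

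The mature let-7 arms carry the seed that target sites match, so their sequences are given first. RefSeq (GRCm38.p6) lists 10 distinct mouse let-7 arms from 12 loci, and 9 of the 10 share 1 seed, bases 2 to 8. The 3 shown here mark that range: let-7a from chr13:48538239-48538260 (minus strand), let-7d from chr13:48536078-48536099 (minus strand), which differs from it outside the seed, and let-7j from chr3:140028281-140028304 (plus strand), the arm with another seed. Capitals mark the seed.
mmu-let-7a-5p: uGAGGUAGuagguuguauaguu
mmu-let-7d-5p: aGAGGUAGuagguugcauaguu
mmu-let-7j: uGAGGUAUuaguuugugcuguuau

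The let-7 target list leaned to higher values in LIN28B/Apcmin tumours, with few members past the test. Of its 26 measured members, 2 rose and 0 fell (all genes: 0.499% and 0.677%), 14 lay higher on every LIN28B/Apcmin array than on either Apcmin array, and 0 lay lower on every one (all genes: 17.0% each way). The median difference was 0.31, against 0.0009 over all genes tested. The mean of 22 members was 7.31, 7.33 and 7.30 on the LIN28B/Apcmin arrays and 6.87 and 6.90 on the Apcmin arrays, with 6.72 and 6.68 on wt colon mucosa. Both calls were lost with either Apcmin array or LIN28B/Apcmin replicate 1 left out.

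Arid3b, a DNA-binding transcription regulator, read 6.88, 6.82 and 6.83 in LIN28B/Apcmin tumours, against 5.80 and 5.75 in Apcmin tumours. All LIN28B/Apcmin arrays lay above both Apcmin arrays, and the gene rose by 1.07 ± 0.20 (adjusted p = 0.0350). E2f6, a repressor of the E2F family, read 9.92, 9.84 and 9.55 in LIN28B/Apcmin tumours, against 8.72 and 8.81 in Apcmin tumours, again without overlap, and rose by 1.00 ± 0.20 (adjusted p = 0.0385). Other probes of E2f6 gave 0.42 and 0.54, neither called, and over all 16 arrays the gene stood at -0.18. Cdc34, a ubiquitin-conjugating enzyme, read 10.16, 10.14 and 9.89 in LIN28B/Apcmin tumours, against 8.94 and 9.04 in Apcmin tumours, which did not pass (1.07 ± 0.24, adjusted p = 0.0657). Another probe of Cdc34 gave 0.64, not called. The groups did not overlap for Arid3a, E2f5, Nr6a1, Hic2, Tgfbr1 or Plagl2 either. Arid3a stood at 1.02 ± 0.28, adjusted p = 0.113, and the zinc finger factor Plagl2 at 0.63 ± 0.19, adjusted p = 0.146. Other well-known targets differed little: Nras, a small GTPase, by 0.18 ± 0.19 and Myc, a growth regulator, by 0.36 ± 0.25, with adjusted p-values of 0.762 and 0.581.

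Igf2bp1 and Igf2bp3 are fetal RNA-binding proteins that stabilise messages. Igf2bp1 read 8.27 and 5.03 in LIN28B/Apcmin tumours (replicate 3 missing), and was undetected in both Apcmin tumours (4.26 and 4.30). Its LIN28B/Apcmin values lay far apart, and the gene was at least 3.56-fold higher, which did not pass (adjusted p = 0.201). Igf2bp3 read 6.59, 8.17 and 5.98 in LIN28B/Apcmin tumours and 4.59 and 4.58, undetected, in Apcmin tumours, at least 4.28-fold higher without passing (adjusted p = 0.117). Another probe of Igf2bp3 gave a log2 difference of 1.48, against 2.33 for the probe used, and was not called. An at-least fold compares the mean of the group with detected signal to the lowest detected level on the arrays of the other group. The chromatin protein Hmga2, itself a target, and Lin28a, the paralog of LIN28B, were not detected on any of the 14 readable arrays of the series. In the small intestine, on other tumour arrays, 5 of the 26 members rose and 0 fell, with a median difference of 0.62. Of all 11229 genes tested, 231 rose and 276 fell there, with a median of 0.0257.

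**Figure D1:**
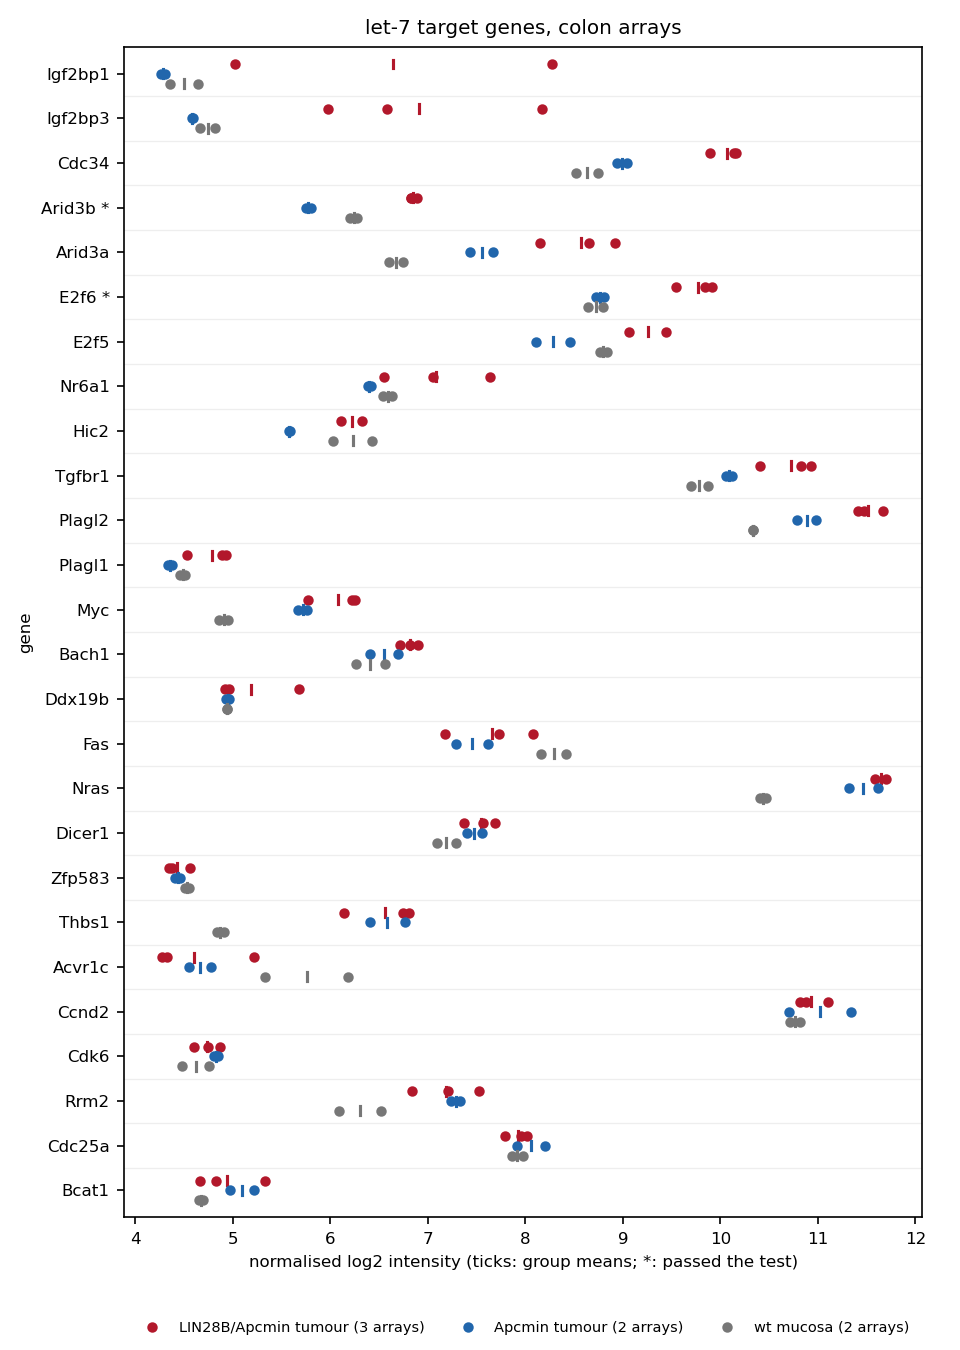
Normalised log2 intensity (x axis) of the 26 measured let-7 target genes (y axis) on each colon array: LIN28B/Apcmin tumours (red, 3 arrays), Apcmin tumours (blue, 2) and wt mucosa (grey, 2), with ticks at group means and stars on the 2 genes past the test. The upper 14 genes have every red point right of both blue points, and the spread of the red points is widest for Igf2bp1, at 8.27 and 5.03.

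Genes of the type I interferon response, the antiviral programme that cells start when interferon binds its receptor, were higher in LIN28B/Apcmin tumours. Of 30 measured members, 11 rose and 0 fell, where 0.499% of all genes rose. All 30 had a positive difference, 27 lay higher on every LIN28B/Apcmin array (17.0% of all genes did), and the median difference was 1.93. The mean of 25 members was 8.26, 8.60 and 8.97 on the LIN28B/Apcmin arrays and 6.94 and 6.67 on the Apcmin arrays, and 7.32 and 7.55 on wt colon mucosa. The wt level lay between both tumour groups. Without Apcmin replicate 2 the number of members called was 0, without Apcmin replicate 1 it was 1 and without LIN28B/Apcmin replicate 2 it was 2, with medians of 1.66, 2.08 and 1.85. It was 5 without LIN28B/Apcmin replicate 3 and 5 without either wt colon array. Against wt mucosa, with which both tumour groups were set side by side, the list median was 1.08 for LIN28B/Apcmin tumours and -0.51 for Apcmin tumours.

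Among the effectors, Rsad2 (viperin), an enzyme that makes a chain-terminating nucleotide, read 11.08, 10.41 and 11.48 in LIN28B/Apcmin tumours, against 7.87 and 7.10 in Apcmin tumours. It was 11.3-fold higher (3.50 ± 0.53, adjusted p = 0.0172), with the lowest LIN28B/Apcmin array above both Apcmin arrays. Oas2, which makes the activator of RNase L, read 8.98 and 9.97 in LIN28B/Apcmin tumours (replicate 3 missing), against 6.37 and 5.82 in Apcmin tumours, and rose by 3.38 ± 0.66 (adjusted p = 0.0411). Ifit3, of the family that binds foreign RNA ends, read 10.30, 10.49 and 11.10 in LIN28B/Apcmin tumours, against 7.99 and 7.51 in Apcmin tumours, a rise of 2.88 ± 0.46 (adjusted p = 0.0209). For Mx2, a dynamin-like antiviral GTPase, the smallest adjusted p of the list was found: 6.94, 7.36 and 7.71 in LIN28B/Apcmin tumours and 4.89 and 4.71 in Apcmin tumours gave 2.54 ± 0.31, adjusted p = 0.00625. Apol9b, an apolipoprotein L of mice, read 7.05, 7.88 and 8.76 in LIN28B/Apcmin tumours and was undetected in both Apcmin tumours (4.62 and 4.72), so that it was at least 8.48-fold higher (adjusted p = 0.0365). Rtp4, a chaperone of receptor transport, also rose (1.88 ± 0.31, adjusted p = 0.0221). For each of these genes every LIN28B/Apcmin array lay above both Apcmin arrays.

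Regulators of the response moved with the effectors. Irf7, the transcription factor that amplifies interferon production, read 8.11, 8.52 and 8.90 in LIN28B/Apcmin tumours, against 6.30 and 6.08 in Apcmin tumours and 8.70 and 8.35 in wt mucosa. It rose by 2.32 ± 0.40 (adjusted p = 0.0264) over Apcmin tumours, whose own difference from wt was -2.34 ± 0.44, adjusted p = 0.00568, and LIN28B/Apcmin tumours differed from wt by -0.02 ± 0.40. Oasl1, a repressor of Irf7 translation in mice, had the same order, with 8.99 and 8.73 in LIN28B/Apcmin tumours (replicate 3 missing), against 6.87 and 6.27 in Apcmin tumours and 8.72 and 8.53 in wt mucosa (rise 2.28 ± 0.39, adjusted p = 0.0298). Stat2, a transcription factor of interferon signalling, rose by 1.84 ± 0.36 (adjusted p = 0.0365), the RNA-sensor homologue Dhx58 by 2.16 ± 0.35 (adjusted p = 0.0210), and Usp18, which removes ISG15 from proteins and dampens the receptor, by 2.48 ± 0.50 (adjusted p = 0.0411). The ubiquitin-like Isg15 itself read 9.45 and 10.01 in LIN28B/Apcmin tumours (replicate 3 missing), against 7.97 and 7.05 in Apcmin tumours and did not pass (2.22 ± 0.67, adjusted p = 0.156). Ifit2 (2.91 ± 0.62, adjusted p = 0.0542), the OAS-like Oasl2 (2.62 ± 0.63, adjusted p = 0.0839) and the kinase Eif2ak2 (1.25 ± 0.27, adjusted p = 0.0544) did not pass either, without overlap of the groups. Only Ifih1, Zbp1 and Ifi27l2a overlapped between the groups.

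**Figure D2:**
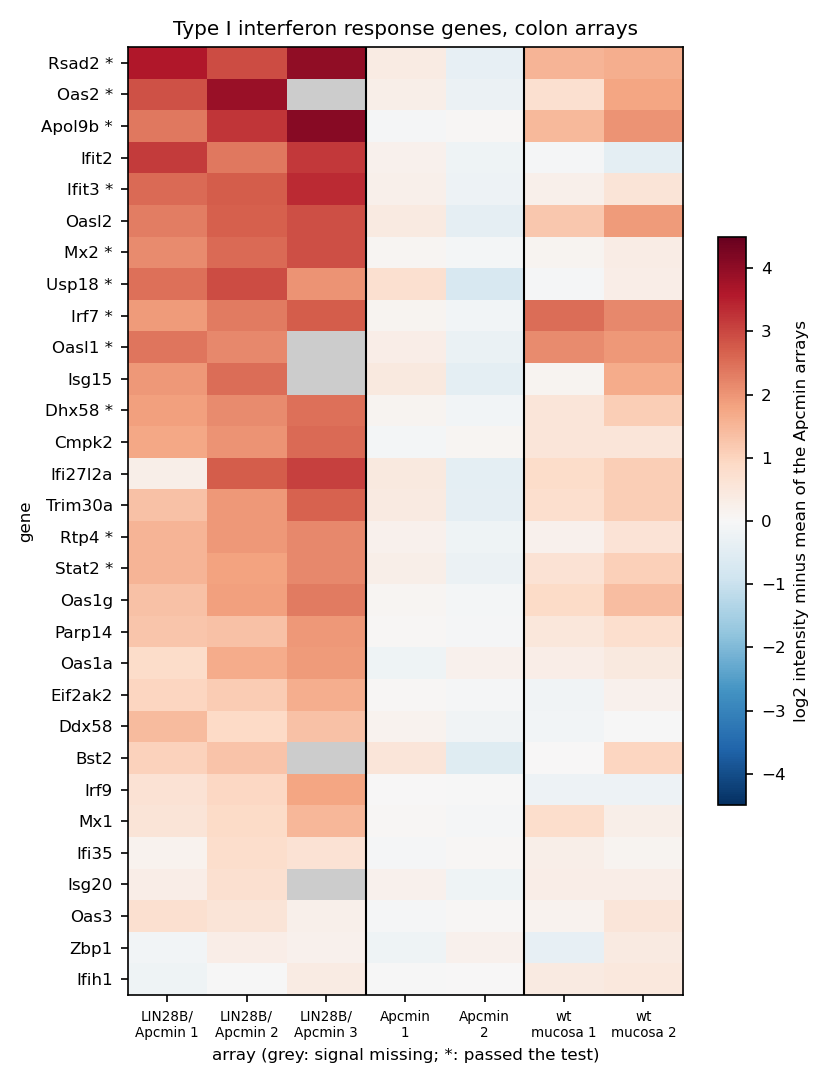
Log2 intensity minus the mean of the Apcmin arrays (colour, from -4.5 blue to 4.5 red) for the 30 measured type I interferon response genes (y axis, sorted by difference) on the 3 LIN28B/Apcmin, 2 Apcmin and 2 wt colon arrays (x axis). Grey cells are missing signals and stars mark the 11 genes past the test. The LIN28B/Apcmin columns are red over most rows, and the wt columns are red for some genes, such as Irf7 and Oasl1, and near white or blue for others.

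The Oas, Ifit, Mx and Ifitm families were grouped after the called genes were seen and share called members with the list, so that their counts add no separate evidence. All 9 Oas and Oas-like genes had a positive difference and 2 rose (median 1.48), as did both Ifit genes, with 1 call, and both Mx genes, with 1 call. Of 5 Ifitm genes, which block viral entry at membranes, all were positive and 1 rose, Ifitm6 (6.92, 7.57 and 6.78 in LIN28B/Apcmin tumours, against 5.24 and 5.01 in Apcmin tumours; 1.96 ± 0.33, adjusted p = 0.0237). Outside the list and also chosen after their values were seen, the RNA-editing enzyme Adar (1.34 ± 0.24, adjusted p = 0.0295), the ubiquitin ligase Trim25 (1.54 ± 0.32, adjusted p = 0.0480), the glycoprotein Lgals3bp (1.62 ± 0.32, adjusted p = 0.0365), Tor3a (1.53 ± 0.29, adjusted p = 0.0349) and the antiviral Shfl (1.06 ± 0.19, adjusted p = 0.0349) rose; all are known as interferon-induced. Shfl was lower over all 16 arrays (-1.33) and with no value set to missing (-0.87). Near-identical paralogs could share probe signal among the Oas, Ifit and Apol9 genes. Other probes of Ifit3 gave 2.72 and 2.98, neither called. Those of Oasl1 gave 1.80, called, and 1.43, not called, and those of Usp18 gave 3.01 and 3.16, both called. Genes of the interferon gamma response, its GTPases and MHC class I were set apart in a list of 24, of which 0 rose and 0 fell (median 0.41; 7 at an unadjusted limma p under 0.05), the peptide transporter Tap1 standing at 1.73 ± 0.41, adjusted p = 0.0758.

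Lists of immune cell markers had no called member. T cell and cytotoxic lymphocyte genes (15, median 0.27, 0 at an unadjusted limma p under 0.05) averaged, over 14 of them, 5.54, 5.80 and 5.88 on the LIN28B/Apcmin arrays and 5.63 and 5.34 on the Apcmin arrays. Neutrophil and myeloid genes (26, median 0.15, 4 at an unadjusted limma p under 0.05) averaged, over 23 of them, 8.61, 8.63 and 8.75 on the LIN28B/Apcmin arrays and 8.60 and 8.16 on the Apcmin arrays, and B and plasma cell genes (11, median -0.59, 5 at an unadjusted limma p under 0.05) 5.73, 5.88 and 5.94 on the LIN28B/Apcmin arrays and 6.59 and 6.57 on the Apcmin arrays. Cd3e, a chain of the T cell receptor complex, read 5.18, 5.92 and 6.59 in LIN28B/Apcmin tumours and 5.31 and 5.18 in Apcmin tumours, with overlap. S100a8, a calcium-binding protein of neutrophils, read 12.86, 12.22 and 12.03 in LIN28B/Apcmin tumours and 12.01 and 11.25 in Apcmin tumours, against 5.93 and 4.53 in wt mucosa, so that both tumour groups carried it. The part of these cells in the interferon values was not tested.

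Promoters of interferon-induced genes often hold the interferon-stimulated response element. The letters GAAANNGAA, or TTCNNTTTC for the other strand, were searched in windows from 250 bases before to 50 after the RefSeq start (GRCm38.p6) on both strands. Of 27025 genes with a promoter listed, 9.76% held a match in at least 1 of their windows, as did 8.62% of the 9080 tested genes among them. Among interferon list members it was 13 of 21 (61.9%), and among those that rose 4 of 6 (66.67%). Genes that rose outside the list held a match in 3 of 33 (9.09%), and genes that fell in 2 of 60 (3.33%). Irf7 and Oasl1 had no match in the window. Promoters are shown for an effector with 1 match, Rsad2 (chr12:26456403-26456702, minus strand), an effector with 3, Ifit3 (chr19:34583279-34583578, plus strand), and a regulator, Stat2 (chr10:128270248-128270547, plus strand), 5′ to 3′ on the strand of the gene. Capitals mark the matches.
Rsad2: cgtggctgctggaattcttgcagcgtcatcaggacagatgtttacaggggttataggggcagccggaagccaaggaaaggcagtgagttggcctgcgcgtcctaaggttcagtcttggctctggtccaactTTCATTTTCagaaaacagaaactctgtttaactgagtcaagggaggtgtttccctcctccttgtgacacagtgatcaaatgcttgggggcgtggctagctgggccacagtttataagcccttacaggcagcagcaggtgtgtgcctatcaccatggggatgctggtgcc
Ifit3: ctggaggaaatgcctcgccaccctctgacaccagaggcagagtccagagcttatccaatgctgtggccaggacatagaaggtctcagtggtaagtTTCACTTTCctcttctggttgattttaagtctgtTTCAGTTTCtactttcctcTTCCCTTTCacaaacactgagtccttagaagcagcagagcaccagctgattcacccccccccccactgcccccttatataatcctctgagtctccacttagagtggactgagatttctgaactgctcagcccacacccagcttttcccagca
Stat2: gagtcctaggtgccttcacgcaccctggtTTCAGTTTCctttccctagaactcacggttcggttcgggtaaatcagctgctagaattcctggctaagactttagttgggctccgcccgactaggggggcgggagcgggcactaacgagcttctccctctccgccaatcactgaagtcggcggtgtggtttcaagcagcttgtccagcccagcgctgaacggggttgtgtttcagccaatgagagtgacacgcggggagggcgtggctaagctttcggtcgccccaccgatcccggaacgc

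Another group of rises, put together after the values were seen, were secreted proteins best known from liver and plasma. It was gathered from rises alone, while the acute phase protein Saa1 and the hepcidin Hamp2, given with other genes below, fell. Apoc4, an apolipoprotein of triglyceride-rich particles, had the largest rise among the genes called: it read 9.98, 8.03 and 9.26 in LIN28B/Apcmin tumours, against 5.83 and 5.18 in Apcmin tumours. It was 12.0-fold higher (3.59 ± 0.62, adjusted p = 0.0264), and all LIN28B/Apcmin arrays lay above the Apcmin arrays. Lbp, which hands bacterial lipopolysaccharide to its receptors, read 7.33, 8.37 and 8.84 in LIN28B/Apcmin tumours, against 5.62 and 6.14 in Apcmin tumours (2.30 ± 0.36, adjusted p = 0.0198). Igfals, which holds IGF in a circulating complex, read 8.41, 8.12 and 8.03 in LIN28B/Apcmin tumours, against 5.58 and 5.13 in Apcmin tumours (2.83 ± 0.32, adjusted p = 0.00482). Tfpi, an inhibitor of the start of coagulation, rose by 2.44 ± 0.43 (adjusted p = 0.0293), Serpina10, an inhibitor of coagulation factor Xa, by 2.17 ± 0.29 (adjusted p = 0.0116), and the fetuin Fetub by 1.72 ± 0.33 (adjusted p = 0.0363). Serpinf2, the main inhibitor of plasmin, and the fibrinogen-like Fgl1 were undetected in both Apcmin tumours and at least 2.56-fold and 1.86-fold higher (adjusted p = 0.0334 and 0.0365). Counted over whole families, 2 of 19 serpins rose and 1 fell, and of 8 fibrinogen and coagulation factor genes 2 rose, with 7 of the 8 positive. Of all 11229 genes 0.499% rose, 0.677% fell and 5629 were positive. In the apolipoprotein and lipid transport list, Apoc4 was the 1 of 13 members that rose (median 0.08). Red blood cell genes, which follow the blood content of a sample, lay in the same direction: 3 of the 4 measured, all but Hbb-bt, averaged 8.78, 10.63 and 8.97 on the LIN28B/Apcmin arrays and 8.40 and 8.15 on the Apcmin arrays (over all 4, median 1.34, 0 called and 2 at an unadjusted limma p under 0.05), LIN28B/Apcmin replicate 2 being the highest, and the part of blood in these values was not tested.

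Goblet cells make the mucus of the colon, and their genes were lower in LIN28B/Apcmin tumours. Of 21 measured members of the mucus and secretion list 6 fell and 0 rose, where 0.677% of all genes fell, 14 lay lower on every LIN28B/Apcmin array (17.0% of all genes did), and the median difference was -1.22. The mean of 20 members was 8.95, 8.71 and 9.11 on the LIN28B/Apcmin arrays and 10.06 and 10.06 on the Apcmin arrays, and 10.99 and 11.10 on wt mucosa, so that the 3 groups stood in the order LIN28B/Apcmin, Apcmin, wt from low to high. No member was called without Apcmin replicate 1 or without Apcmin replicate 2 (medians -1.16 and -1.12), and 3 without LIN28B/Apcmin replicate 2. Clca1, a secreted protease that processes mucus, read 8.56, 7.78 and 9.15 in LIN28B/Apcmin tumours, against 12.53 and 12.00 in Apcmin tumours, and 14.47 and 14.66 in wt mucosa. It fell in LIN28B/Apcmin tumours (-3.77 ± 0.61, adjusted p = 0.0209), with all 3 arrays below the Apcmin pair. Zg16, a lectin that keeps bacteria off the mucus, read 12.07, 12.34 and 12.70 in LIN28B/Apcmin tumours, against 14.24 and 14.02 in Apcmin tumours (-1.76 ± 0.21, adjusted p = 0.00625), and Tff3, the trefoil peptide of goblet cells, 10.33, 10.27 and 10.78 in LIN28B/Apcmin tumours, against 11.70 and 11.71 in Apcmin tumours (-1.25 ± 0.21, adjusted p = 0.0237). Rep15, a Rab15-binding protein, also fell (-2.27 ± 0.31, adjusted p = 0.0116). Spdef, the transcription factor of goblet cell maturation, did not pass (7.19, 5.96 and 7.03 in LIN28B/Apcmin tumours, against 7.52 and 7.57 in Apcmin tumours; -0.82 ± 0.36, adjusted p = 0.345), nor did Agr2, an ER protein needed for mucin, at -0.20 ± 0.31, adjusted p = 0.850. Atoh1, the factor of the secretory lineage, was not detected on any of the 14 arrays, and Muc2 was not analysed here.

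Enzymes of glycan sialylation, extension and sulfation were among the falls, an observation made after the values were seen. St6gal1, which adds sialic acid to N-glycans, read 7.67, 7.84 and 8.50 in LIN28B/Apcmin tumours, against 10.05 and 10.13 in Apcmin tumours (-2.09 ± 0.42, adjusted p = 0.0389). St6galnac6 (-1.82 ± 0.32, adjusted p = 0.0287) and St3gal6 (-1.22 ± 0.24, adjusted p = 0.0385) fell with it, 3 of 13 measured sialyltransferases in all (0.677% of all genes fell). Of the 13, 3 had a positive difference, and the family median was -0.22. B3gnt5, which starts lacto-series glycolipids, read 7.35 and 7.82 in LIN28B/Apcmin tumours (replicate 3 missing), against 10.14 and 10.48 in Apcmin tumours (-2.73 ± 0.35, adjusted p = 0.0116). Papss1, which makes the sulfate donor, fell by 1.15 (adjusted p = 0.0392), and Man2a1, a mannosidase of N-glycan processing, by 1.05 (adjusted p = 0.0334). The 8 GalNAc transferases that start mucin-type glycans had a median of 0.16, with 5 of the 8 positive.

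Tissue kallikreins, secreted serine proteases whose genes stand side by side on chromosome 7, were also among the falls and were grouped after the values were seen. Of 8 measured members 4 fell (0.677% of all genes did), all 8 had a negative difference (5598 of all 11229 genes did), and the median was -2.02. Klk1, the kininogen-cleaving enzyme also counted on the goblet list, read 8.34, 10.14 and 10.29 in LIN28B/Apcmin tumours, against 12.30 and 11.82 in Apcmin tumours (-2.47 ± 0.48, adjusted p = 0.0365). Klk1b27 (-3.09 ± 0.54, adjusted p = 0.0274) and Klk1b5 (-2.78 ± 0.56, adjusted p = 0.0398) are close copies of Klk1 and could share probe signal, and another probe of Klk1b5 gave 0.12. Klk15 differed in its wt level: it read 4.73, 6.70 and 7.45 in LIN28B/Apcmin tumours, against 8.82 and 9.74 in Apcmin tumours, and was undetected in wt mucosa (4.67 and 4.72). It passed as higher in Apcmin tumours than in wt mucosa (adjusted p = 0.00131), and fell in LIN28B/Apcmin tumours (-2.99 ± 0.60, adjusted p = 0.0392), where replicate 1 was near the level of wt mucosa and replicates 2 and 3 were above it.

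Colonocyte genes, those of the absorptive cells, had 5 of 23 measured members that fell and 0 that rose (0.677% of all genes fell), with 12 lower on every LIN28B/Apcmin array (17.0% of all genes) and a median of -0.84. The mean of 18 members was 7.04, 6.28 and 6.78 on the LIN28B/Apcmin arrays and 7.45 and 7.60 on the Apcmin arrays, and 9.87 and 9.95 on wt mucosa. Of these calls 2 were left with either Apcmin array left out, and 3 without LIN28B/Apcmin replicate 2 or 3. Mptx1, a mucosal pentraxin, had the smallest adjusted p of all genes: it read 5.26 and 5.27 in LIN28B/Apcmin tumours (replicate 3 missing), against 9.59 and 9.73 in Apcmin tumours, and 12.24 and 12.75 in wt mucosa (-4.39 ± 0.24, adjusted p = 8.03e-05). Its LIN28B/Apcmin values lay close to the detection limit, though both were called detected. Tgm3, a transglutaminase of cornifying epithelia, read 5.01, 4.57 and 4.66 in LIN28B/Apcmin tumours, against 7.07 and 7.32 in Apcmin tumours (-2.45 ± 0.19, adjusted p = 0.000357), and Casp14, a caspase of the same kind of epithelium and on no list, 4.27 and 5.50 in LIN28B/Apcmin tumours (replicate 3 missing), against 8.48 and 8.68 in Apcmin tumours (-3.70 ± 0.33, adjusted p = 0.00171). The water channel Aqp8 (5.50, 5.05 and 6.36 in LIN28B/Apcmin tumours, against 7.68 and 8.26 in Apcmin tumours; -2.34 ± 0.36, adjusted p = 0.0185), the sulfotransferase Sult1a1 (-2.25 ± 0.45, adjusted p = 0.0385) and the acute phase protein Saa1 (-1.57 ± 0.30, adjusted p = 0.0360) completed the calls. Car4, a carbonic anhydrase of surface cells, stood at -2.62 ± 0.90, adjusted p = 0.205, and Krt20, the keratin of mature surface cells, at -0.51 ± 0.37, adjusted p = 0.608. Hsd11b2, which inactivates glucocorticoid in the colon, read 6.36, 5.62 and 6.61 in LIN28B/Apcmin tumours, against 8.59 and 9.28 in Apcmin tumours (-2.74 ± 0.37, adjusted p = 0.0116). Both selenium-binding proteins fell, Selenbp1 by 2.10 (adjusted p = 0.0363) and Selenbp2 by 1.73 (adjusted p = 0.0434); their sequences are alike, and their probes may share signal.

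Of 24 enteroendocrine genes 2 fell and 0 rose (median -0.48), where 0.677% of all genes fell. Insl5, a peptide hormone of colonic L cells, read 4.39, 5.82 and 6.30 in LIN28B/Apcmin tumours, against 9.21 and 8.50 in Apcmin tumours (-3.35 ± 0.49, adjusted p = 0.0163). Resp18, a protein of neuroendocrine granules, was undetected on all LIN28B/Apcmin arrays and at least 2.45-fold lower (adjusted p = 0.0298), as was the hormone Ppy, on no list, at least 2.28-fold lower (adjusted p = 0.0198). Both list calls were lost with either Apcmin array left out, and Chga, the general granule protein, overlapped between groups (4.66, 4.78 and 6.11 in LIN28B/Apcmin tumours and 5.90 and 5.65 in Apcmin tumours). Of 9 genes of the exocrine pancreas list 3 fell (all genes: 0.677%, list median -1.47): Sycn, a zymogen granule protein, which read 5.53, 5.75 and 6.57 in LIN28B/Apcmin tumours, against 9.73 and 11.27 in Apcmin tumours (-4.55 ± 0.46, adjusted p = 0.00183), the lipase cofactor Clps (-2.49 ± 0.46, adjusted p = 0.0334) and Zg16, already described. These genes are also known from intestinal secretory cells, and 1 of the 3 calls was left without Apcmin replicate 1 or 2. Of 10 Paneth cell genes 0 fell and 0 rose (median -0.46, 3 at an unadjusted limma p under 0.05), and 3 of the 10 lay lower on every LIN28B/Apcmin array (17.0% of all genes). Lyz1, their lysozyme, read 14.47, 13.41 and 13.69 in LIN28B/Apcmin tumours and 14.50 and 14.75 in Apcmin tumours, a difference of -0.77. Other probes of Lyz1 gave -1.78 and -0.99, neither called.

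**Figure D3:**
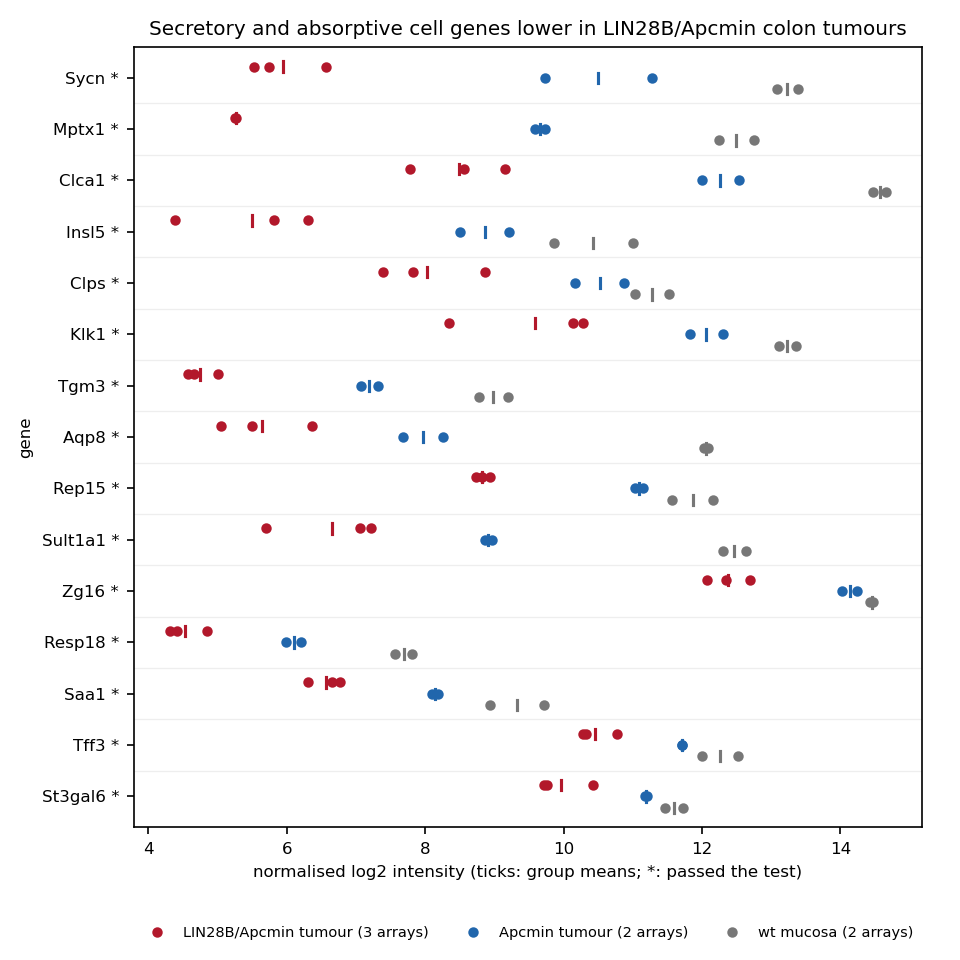
Normalised log2 intensity (x axis) of each gene of the goblet cell, colonocyte, enteroendocrine and exocrine pancreas lists that fell (y axis, largest fall on top) on each colon array: LIN28B/Apcmin tumours (red), Apcmin tumours (blue) and wt mucosa (grey), ticks at group means. No red point reaches a blue one for any gene, and the grey points lie right of the blue ones for most, for example 12.09 and 12.03 for Aqp8 in wt mucosa.

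Wnt target and stem cell genes, the core of the Apcmin tumour state, had no call between the tumour groups. Of 25 Wnt targets 11 lay higher and 4 lower on every LIN28B/Apcmin array, where 17.0% of all genes did each way (median 0.36, and -0.64 over all 16 arrays; 9 at an unadjusted limma p under 0.05). Lgr5, the Wnt-dependent receptor of crypt stem cells, read 7.56, 6.95 and 8.14 in LIN28B/Apcmin tumours, against 9.28 and 9.59 in Apcmin tumours (-1.89 ± 0.47, adjusted p = 0.0902). Axin2, the feedback inhibitor, read 11.95, 11.65 and 11.71 in LIN28B/Apcmin tumours, against 11.23 and 11.28 in Apcmin tumours (0.51 ± 0.20, adjusted p = 0.263), Notum stood at 0.63 ± 0.70, adjusted p = 0.768 and Ascl2, a stem cell factor, at -0.30 ± 0.37, adjusted p = 0.802. Lgr5 and Axin2 thus lay on opposite sides, and neither passed. Of 19 stem cell genes 0 were called (median 0.00; 10 at an unadjusted limma p under 0.05). Outside these lists, Tcf7l1, a TCF that mostly represses Wnt targets, read 7.58, 7.94 and 8.16 in LIN28B/Apcmin tumours, against 9.38 and 9.66 in Apcmin tumours and fell (-1.62 ± 0.27, adjusted p = 0.0210). Apc itself read 6.77, 6.81 and 6.70 in LIN28B/Apcmin tumours and 6.37 and 6.44 in Apcmin tumours (0.36 ± 0.26, adjusted p = 0.609). Of 26 proliferation and DNA replication genes 0 were called (median -0.03; 2 at an unadjusted limma p under 0.05), with Pcna at 0.89 ± 0.36, adjusted p = 0.298. Of 13 genes of fetal and regenerating epithelium 2 fell (all genes: 0.677%, list median -0.23, and 0.11 without Apcmin replicate 1): clusterin (Clu), a secreted chaperone of regenerating crypts, which read 10.98, 11.05 and 11.60 in LIN28B/Apcmin tumours, against 12.52 and 12.85 in Apcmin tumours and 8.41 and 8.66 in wt mucosa (-1.48 ± 0.26, adjusted p = 0.0276), and the matricellular Ccn2 (-1.16 ± 0.23, adjusted p = 0.0389). Both calls were lost without LIN28B/Apcmin replicate 1, without replicate 2 and without either Apcmin array, and 1 of them without replicate 3.

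Markers of other tissue layers had mostly negative differences in LIN28B/Apcmin tumours. Smooth muscle genes averaged 7.49, 7.56 and 7.73 on the LIN28B/Apcmin arrays and 8.44 and 8.18 on the Apcmin arrays, and 10.42 and 10.48 on wt mucosa. Of 19, 18 had a negative difference (5598 of all 11229 genes did), with a median of -0.50. Of the 19, 1 fell (0.677% of all genes did), the actinin-binding LIM protein Pdlim3. It read 7.74, 7.72 and 7.49 in LIN28B/Apcmin tumours, against 9.14 and 9.15 in Apcmin tumours (-1.49 ± 0.23, adjusted p = 0.0172). Another probe of Pdlim3 gave -1.19, not called. Myh11, their myosin, read 6.26, 6.52 and 6.31 in LIN28B/Apcmin tumours, against 8.50 and 8.29 in Apcmin tumours (-2.04 ± 0.79, adjusted p = 0.266). Col1a1, a fibrillar collagen, stood at -0.66 ± 0.54, adjusted p = 0.662 and Pecam1, of endothelium, at -0.33 ± 0.23, adjusted p = 0.577. Medians were -0.33 for 20 fibroblast and matrix genes and -0.27 for 14 endothelial ones, with 0 calls in both (5 and 1 at an unadjusted limma p under 0.05), and Adipoq, of fat cells, was not detected on any of the 5 arrays. B and plasma cell genes, given above, lay lower on all LIN28B/Apcmin arrays as a list mean, with Mzb1, of plasma cells, at -2.78 ± 0.67, adjusted p = 0.0839. Regional identity genes showed 0 calls of 19 (median -0.07, 3 at an unadjusted limma p under 0.05). Hoxb9 stood at 0.69 ± 0.17, adjusted p = 0.0894, and Hoxd10 at -2.84 ± 0.78, adjusted p = 0.12. Cdx2, the intestinal homeobox factor, read 9.95, 7.86 and 8.17 in LIN28B/Apcmin tumours, against 7.18 and 6.92 in Apcmin tumours (1.61 ± 0.49, adjusted p = 0.155). In wt mucosa Cdx2 read 10.94 and 11.56. The part of these layers in the falls of epithelial genes was not tested.

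**Figure D4:**
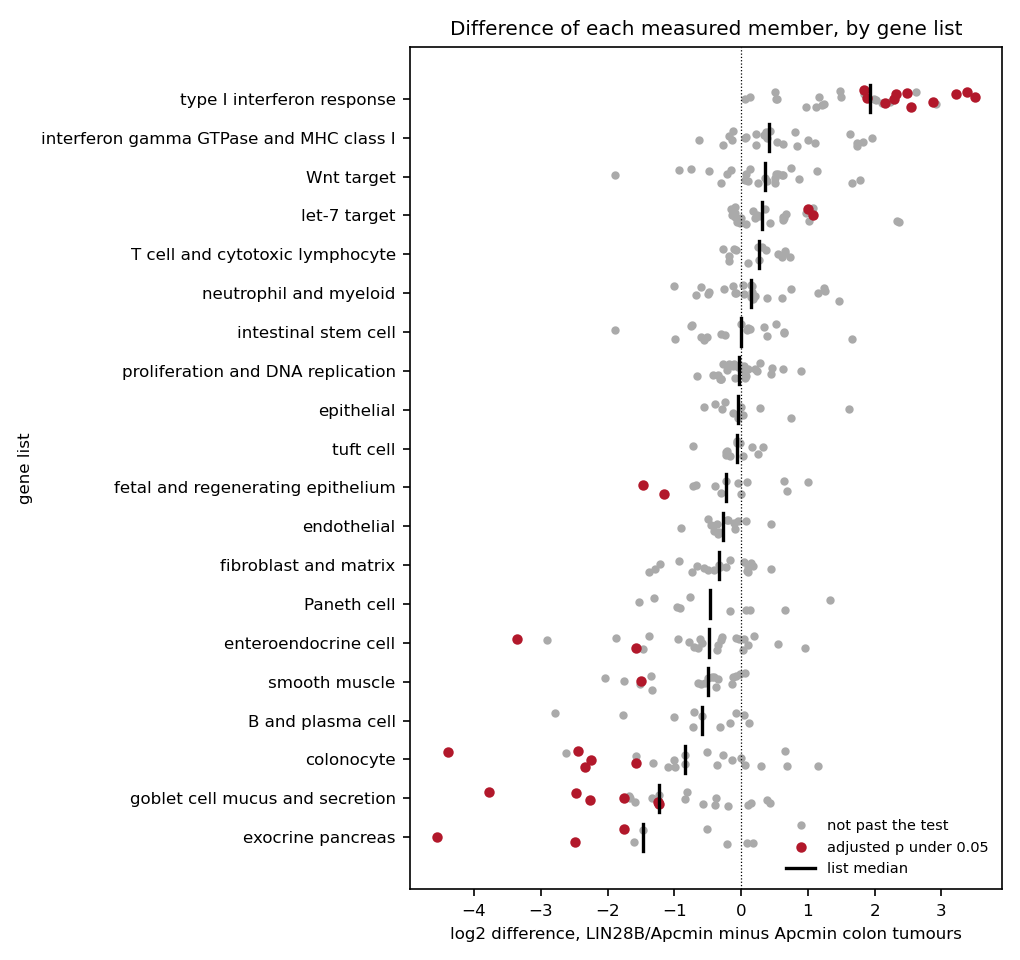
Difference of each measured member (dots; red where it passed the test) in 20 gene lists (y axis), as log2 difference of LIN28B/Apcmin minus Apcmin colon tumours (x axis), with a black bar at each list's median. The type I interferon list lies to the right of zero throughout (median 1.93), and the exocrine pancreas and goblet cell lists have the lowest medians of those shown, at -1.47 and -1.22.

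The tumour arrays of the small intestine shared the normalisation, the probe filter and the estimate of the spread with the colon comparison. They are thus not fully separate from it, though they do not enter the colon means. On these 4 arrays the same genotype difference was measured in the small intestine. There 507 of 11229 genes changed (4.52%), and 47 differed between the organs in a test of the difference itself (0.419%). The count of genes that differed between the organs rested on single arrays. Among colon arrays it was 28 or 31 without LIN28B/Apcmin replicate 1 or 3, 14 or 4 without Apcmin replicate 1 or 2, and 20 without either wt array. Among small intestinal arrays it was 290 or 12 without LIN28B/Apcmin replicate 1 or 2, and 370 without Apcmin replicate 2. Of the 132 genes called in the colon, 27 were called in the small intestine (20.5% of the colon calls and 5.33% of the small intestinal ones), 26 of them in the same direction, 9 higher and 17 lower. The exception was Ccn2. A same sign was found for 110 of the 132, 48 of the higher and 62 of the lower genes, where 54.9% of all genes had the same sign in both organs. Apoc4 and Lbp, of the plasma-type group, rose in both, Apoc4 by 3.59 in the colon and 3.13 ± 0.68 in the small intestine, and Lbp by 2.30 and 2.09 ± 0.40. Clca1 fell in both, with -3.77 in the colon and -3.45 ± 0.67 in the small intestine, as did Klk1 (-2.47 and -2.35 ± 0.52), Klk1b5, Klk1b27, Clps, Resp18 and Pdlim3. Of the interferon list 0 of 30 members were called in the small intestine (median 0.19; 6 at an unadjusted limma p under 0.05). For 1 of the 30, Oasl1, the organs differed: its difference was 2.28 ± 0.39 in the colon and -0.90 ± 0.39 in the small intestine (adjusted p = 0.0477 for the difference). For the others, the difference between organs did not pass, while 21 of the 30 had an unadjusted limma p under 0.05 for it, Irf7 for example with 2.32 in the colon and -0.08 ± 0.44 in the small intestine (adjusted p = 0.116 for the difference). Rsad2, not among those, stood at 2.27 ± 0.58 in the small intestine. The goblet list median was -0.78 there with 2 calls, and that of the colonocyte list -0.23 with 0 calls and 4 at an unadjusted limma p under 0.05; for Mptx1, Tgm3 and Aqp8 the organs differed (adjusted p = 0.00326, 0.00696 and 0.0412). Of the 132 genes, 14 were undetected on all 4 small intestinal tumour arrays, 13 of them lower in the colon, Tgm3 among them, so that a fall could not have been seen there.

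**Figure D5:**
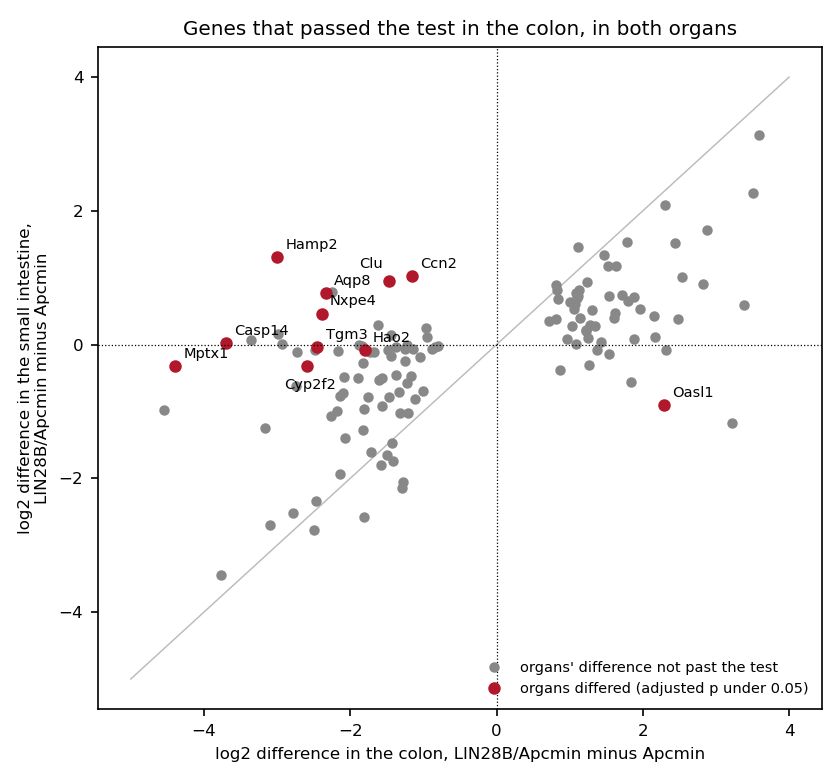
Log2 difference of LIN28B/Apcmin minus Apcmin tumours in the colon (x axis) and in the small intestine (y axis) for the 132 genes called in the colon. Grey points are genes whose difference between organs did not pass, and red points the 11 for which it did; the diagonal marks equal differences. Of the red points only Oasl1 lies right of zero, and Mptx1 lies far left at -4.39 with -0.32 in the small intestine.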

How the data were processed

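RNA of dissected, snap-frozen mucosa or tumours was extracted with TRIZOL and labelled with biotin for Illumina mouse bead arrays, 1 per sample, per the labels' protocols. The deposited intensity of each probe was the average bead signal, neither background-subtracted nor normalised, per the file headers. Each signal came with a deposited detection p-value, from software not given in the sources used here. The authors' series matrix, in intensity units reached by a method not given in the sources used here, served as an alternative. A single gene was named by 23978 of the 25697 probes and none by 1719, and 2 lines lacking a probe name were dropped.

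Arrays with at least 20% of probes at a detection p under 0.05 were kept (14 of 16), and signals under 25 were set to missing. The background step was limma's nec (normexp with the noise level read from the detection p-values, offset 16). Arrays were then put on the log2 scale and quantile normalised. Probes had to be detected on at least 2 arrays, and a gene was read from its brightest probe on average, giving 11229 genes. Means of 7 groups were fitted with limma lmFit and eBayes (7 residual degrees of freedom), without a block, and each contrast was tested two-sided, at 0.05 after Benjamini-Hochberg adjustment. The title number was not used as a block because its consensus correlation was -0.0643, which makes standard errors smaller. The members, the 39 gene lists and the rules were chosen with earlier results of these data known. Named genes were the 15 largest rises and falls among called genes without overlap of the groups, called list members, the 3 members of smallest p of a list with fewer than 2 calls, genes set in advance, called genes that also passed in the test between organs, and defining markers of other cell types; genes outside this rule are marked as chosen after their values were seen. Sequences are RefSeq's (GRCm38.p6). On simulated arrays, 39% of 2-fold and 90% of 4-fold changes were recovered in this comparison of 11229 genes, with 5 unchanged genes called. The simulated arrays were independent, with 1 spread per gene in all groups. The real LIN28B/Apcmin arrays share 1 title number and had a median SD of 0.253, against 0.125 among Apcmin tumours. These rates therefore need not hold for the real arrays. The number of arrays limits the precision. Alternatives changed the arrays, missing values, background, scaling, filter, blocks and probes. Software was limma 3.58.1 under R 4.3.3, with the package data.table at 1.17.8, and matplotlib 3.10.9 under Python 3.11.15.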

Additional observations from a re-analysis of the deposited data

Results flagged for a closer look

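Of the genes called in the colon, 11 had a LIN28B difference in the colon that differed from that in the small intestine, by limma's test of the difference between both differences (Benjamini-Hochberg adjusted over 11229 genes). Each value below is the colon difference minus the small intestinal one, in log2. Oasl1 was the 1 positive case, at 3.19 (adjusted p = 0.0477), made of 2.28 in the colon and -0.90 in the small intestine. The most negative was Hamp2, a hepcidin, at -4.31 (adjusted p = 0.0224), with -3.00 in the colon and 1.31 in the small intestine. Mptx1 followed at -4.07, Aqp8 at -3.10 and Nxpe4 at -2.85 (adjusted p = 0.00326, 0.0412 and 0.0498). Clu and Ccn2 had differences of opposite sign in the organs, Clu with -1.48 in the colon and 0.95 in the small intestine (-2.43, adjusted p = 0.0285), and Ccn2 with -1.16 and 1.02 (-2.17, adjusted p = 0.0285). Casp14 at -3.72, Tgm3 at -2.41 and Hao2, a hydroxyacid oxidase, at -1.72 (adjusted p = 0.0117, 0.00696 and 0.0412) were undetected on all 4 small intestinal tumour arrays, where a fall could not have been measured. Cyp2f2, a cytochrome P450 undetected on all 3 LIN28B/Apcmin colon arrays, stood at -2.28 (adjusted p = 0.0126), and was detected on 0 of 2 LIN28B/Apcmin and 1 of 2 Apcmin small intestinal arrays.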

How the results depend on the processing

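The 132 calls of the comparison became 0 over all 16 arrays, 23 with no value set to missing, 27 with the arrays of a title number averaged (1 LIN28B/Apcmin value, its spread taken from other groups), 77 with only the 5 colon tumour arrays in the fit and 229 with only the colon arrays. Leaving out 1 array gave from 5 to 186 calls. The count stayed within 1.5 times under the other alternatives: background offset 50 (145), no background correction (143), median scaling (165), no filter (93), a filter on the 5 arrays (160), the series matrix (133), every probe (175), the title number as a random block (187) and, chosen after seeing the data, signals under 35 set to missing (158). With the replicate number as a block the count was 103, 33 higher and 70 lower, with 72 of the 132 genes among them. Deviations of same-numbered arrays, replicates 1 and 2 of both colon tumour groups, correlated at 0.033. The deviations of the 2 Apcmin arrays mirror each other, so this value cannot tell whether the numbers mark more than a label. That was not tested. The 47 calls of the difference between organs became 0 over all 16 arrays, 21 with no value set to missing, 30 without a filter, 21 with the filter on the 5 arrays and 9 with title numbers averaged, and from 4 to 370 with 1 array left out. Of the 132 called genes, 8 pairs of a gene and an alternative reversed. Over all 16 arrays these were D10Wsu102e at -0.96, Atg12 at -0.26, Shfl at -1.33, E2f6 at -0.18, Shisa5 at -0.47 and Tm2d3 at -0.12, and with no value set to missing D10Wsu102e at -0.48 and Shfl at -0.87. Both settings keep lost signals as values, and the cause was otherwise not tested. In all, 2358 of 3696 such pairs kept direction and call and 1330 kept the direction and lost the call. With title numbers averaged, the direction could not change. The interferon list's median stayed positive (1.13 to 2.13) and the goblet list's negative (-1.52 to -0.95). Signal over background limits what can be said of genes near the detection limit, such as Mptx1, Tgm3 and Casp14 in LIN28B/Apcmin tumours.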

Other observations

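The genes of this paragraph, most of them on no list, were chosen after their values were seen. Among the genes that fell in LIN28B/Apcmin tumours were Abat, which breaks down GABA (6.17, 6.96 and 7.02 in LIN28B/Apcmin tumours, against 8.78 and 8.94 in Apcmin tumours; -2.15 ± 0.37, adjusted p = 0.0274), Acsm3, of medium-chain fatty acid activation (-2.17 ± 0.44, adjusted p = 0.0415), Upb1, of pyrimidine breakdown (-2.07 ± 0.38, adjusted p = 0.0349), Hpd, of tyrosine breakdown (-1.47 ± 0.29, adjusted p = 0.0365), and Oxct1, which activates ketone bodies for use (-1.29 ± 0.25, adjusted p = 0.0365). Of 20 measured cytochrome P450 genes of family 2, Cyp2f2, Cyp2d12 and Cyp2s1 fell and 0 rose (0.677% of all genes fell), with a family median of -0.27. Cyp2f2, undetected on all 3 LIN28B/Apcmin arrays, was at least 4.48-fold lower (adjusted p = 0.000380). Other genes that fell were the hepcidin Hamp2 (-3.00 ± 0.43, adjusted p = 0.0172), the lactoperoxidase Lpo (-1.84 ± 0.29, adjusted p = 0.0198) and the beta-defensin Defb45 (-2.94 ± 0.45, adjusted p = 0.0183). Scin, a calcium-dependent actin-severing protein, read 6.59, 6.79 and 7.32 in LIN28B/Apcmin tumours, against 10.17 and 9.96 in Apcmin tumours (-3.17 ± 0.40, adjusted p = 0.00885). On the other side, Alox15, a lipoxygenase, was undetected in both Apcmin tumours and at least 1.63-fold higher (adjusted p = 0.0365), and the formyl peptide receptor Fpr2 rose by 1.15 ± 0.22 (adjusted p = 0.0349). Tjp1 (ZO-1), a scaffold of tight junctions, read 7.33, 7.43 and 7.62 in LIN28B/Apcmin tumours, against 6.27 and 6.14 in Apcmin tumours and was the 1 of 15 tight junction and adhesion genes that rose (1.25 ± 0.23, adjusted p = 0.0334). Reg3g, a secreted antibacterial lectin, read 9.41, 11.09 and 11.30 in LIN28B/Apcmin tumours, against 7.32 and 8.62 in Apcmin tumours, without overlap, and did not pass (2.63 ± 0.77, adjusted p = 0.143). Of 22 ribosome biogenesis genes 9 lay higher and 1 lower on every LIN28B/Apcmin array (17.0% of all genes each way), with 0 calls (limma; 2 at an unadjusted p under 0.05) and a median of 0.23.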
